A study of Homo sapiens with 16 samples.

Results

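The receptors of the epidermal growth factor (EGF) family, their ligands and the feedback inhibitor ERRFI1 were followed across 16 Affymetrix Human Gene 1.0 ST arrays of 2 breast cancer cell lines. The 9 genes were the receptors EGFR, ERBB2 and ERBB3, the ligands EREG, TGFA, HBEGF, BTC and EPGN, and ERRFI1. Each was represented by the transcript cluster, the array's unit of measurement, that carried its symbol and no other. All 9 genes had such a cluster, 1 each, among 33297 clusters on the array, of which 19460 carried exactly 1 symbol.

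HCC70 and MDA-MB-468 are established human cell lines from basal-like breast cancers. The study altered Polycomb repressive complex 2 (PRC2), which silences genes by methylating histone H3; EZH2 is its catalytic subunit and EED a core subunit. HCC70 cells stably carrying shEZH2 were set against HCC70 cells with a scrambled shRNA (set a), and HCC70 cells with shEED against a separate set of scrambled shRNA cells (set b). HCC70 cells with an EZH2 cDNA, labelled fip EZH2, were set against cells with an empty vector, labelled plKO Puro; the labels do not say that both share a backbone. MDA-MB-468 cells with shEZH2 were set against MDA-MB-468 cells with scrambled shRNA. Each of the 8 groups had 2 arrays. Every group, controls included, had been infected with virus in the presence of polybrene and placed under puromycin selection. The doses, the start of selection and the time from seeding to RNA were the same for all arrays. The design gives each treatment its own control but does not state which scrambled set belongs to which knockdown. Set a was taken for shEZH2 and set b for shEED from the blocks of sample codes. Nothing says that the duplicates were separate cultures, so the p-values measure the spread between these samples, which may be technical.

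EGFR family receptors sit in the plasma membrane and carry an intracellular tyrosine kinase domain, which is impaired in ERBB3. A ligand bound outside the cell drives pairing of receptors, which then signal through RAS and MAP kinases and through PI3 kinase and AKT. The ligands are made as membrane-anchored precursors and are released by ADAM proteases. EGFR is high in many basal-like breast cancers, and MDA-MB-468 is known for an amplified EGFR gene.

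The knockdowns were visible on the arrays. EZH2 lay at 8.50 and 8.58 on the HCC70 shEZH2 arrays, against 10.01 and 9.998 in scrambled set a, a log2 change of -1.47 ± 0.07 (SE; limma, adjusted p = 3.35e-07). The change of EZH2 was -1.67 ± 0.07 in MDA-MB-468 shEZH2 cells (adjusted p = 2.56e-07), and that of EED was -0.82 ± 0.11 in HCC70 shEED cells (adjusted p = 0.000347). EZH2 also fell by 0.24 in the shEED cells (adjusted p = 0.0456), a call lost when any 1 of the 4 arrays was left out (-0.26 to -0.21). With the EZH2 cDNA, EZH2 lay at 10.20 and 10.27, against 9.94 and 9.94 with the empty vector, a difference of 0.29 that did not pass the threshold (adjusted p = 0.0961). The labels call both lines breast cancer cells. All 8 epithelial markers lay at or above a floor of log2 6 on every array of both lines, as did all 4 basal keratin and adhesion genes that had a cluster of their own out of 9 listed. Of the 7 genes of the hormone receptor positive luminal list, ESR1, PGR and TFF1 were below the floor on every array. The other 4, FOXA1, GATA3, XBP1 and AGR2, reached it on every array of both lines. So did COL1A1 of 6 fibroblast genes, and CD14 and CD68 of 4 leukocyte genes with a cluster of their own. The rest of these lists stayed below it on every array. So did the 4 endothelial genes, except KDR on 2 MDA-MB-468 arrays. Array medians ran from 5.37 to 5.53.

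All values below are log2 RMA signals, and a difference of 1 is a 2-fold difference in signal. RMA signals of different genes depend on their probes, so levels are compared only within a gene. A cluster was tested where at least 2 arrays reached log2 6, which kept 16175 clusters and 8 of the 9 genes. BTC, the betacellulin gene, lay below the floor on all 16 arrays, between 5.21 and 5.97, and was not tested. Among the tested genes EREG reached the floor on 9 arrays, EPGN on all 12 HCC70 arrays and no MDA-MB-468 array, and the other 6 on every array. A gene was called changed at an adjusted p under 0.05. With 2 arrays per group, a lack of overlap between groups is a description only. How many of all tested clusters did not overlap was not counted.

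**Figure D1:**
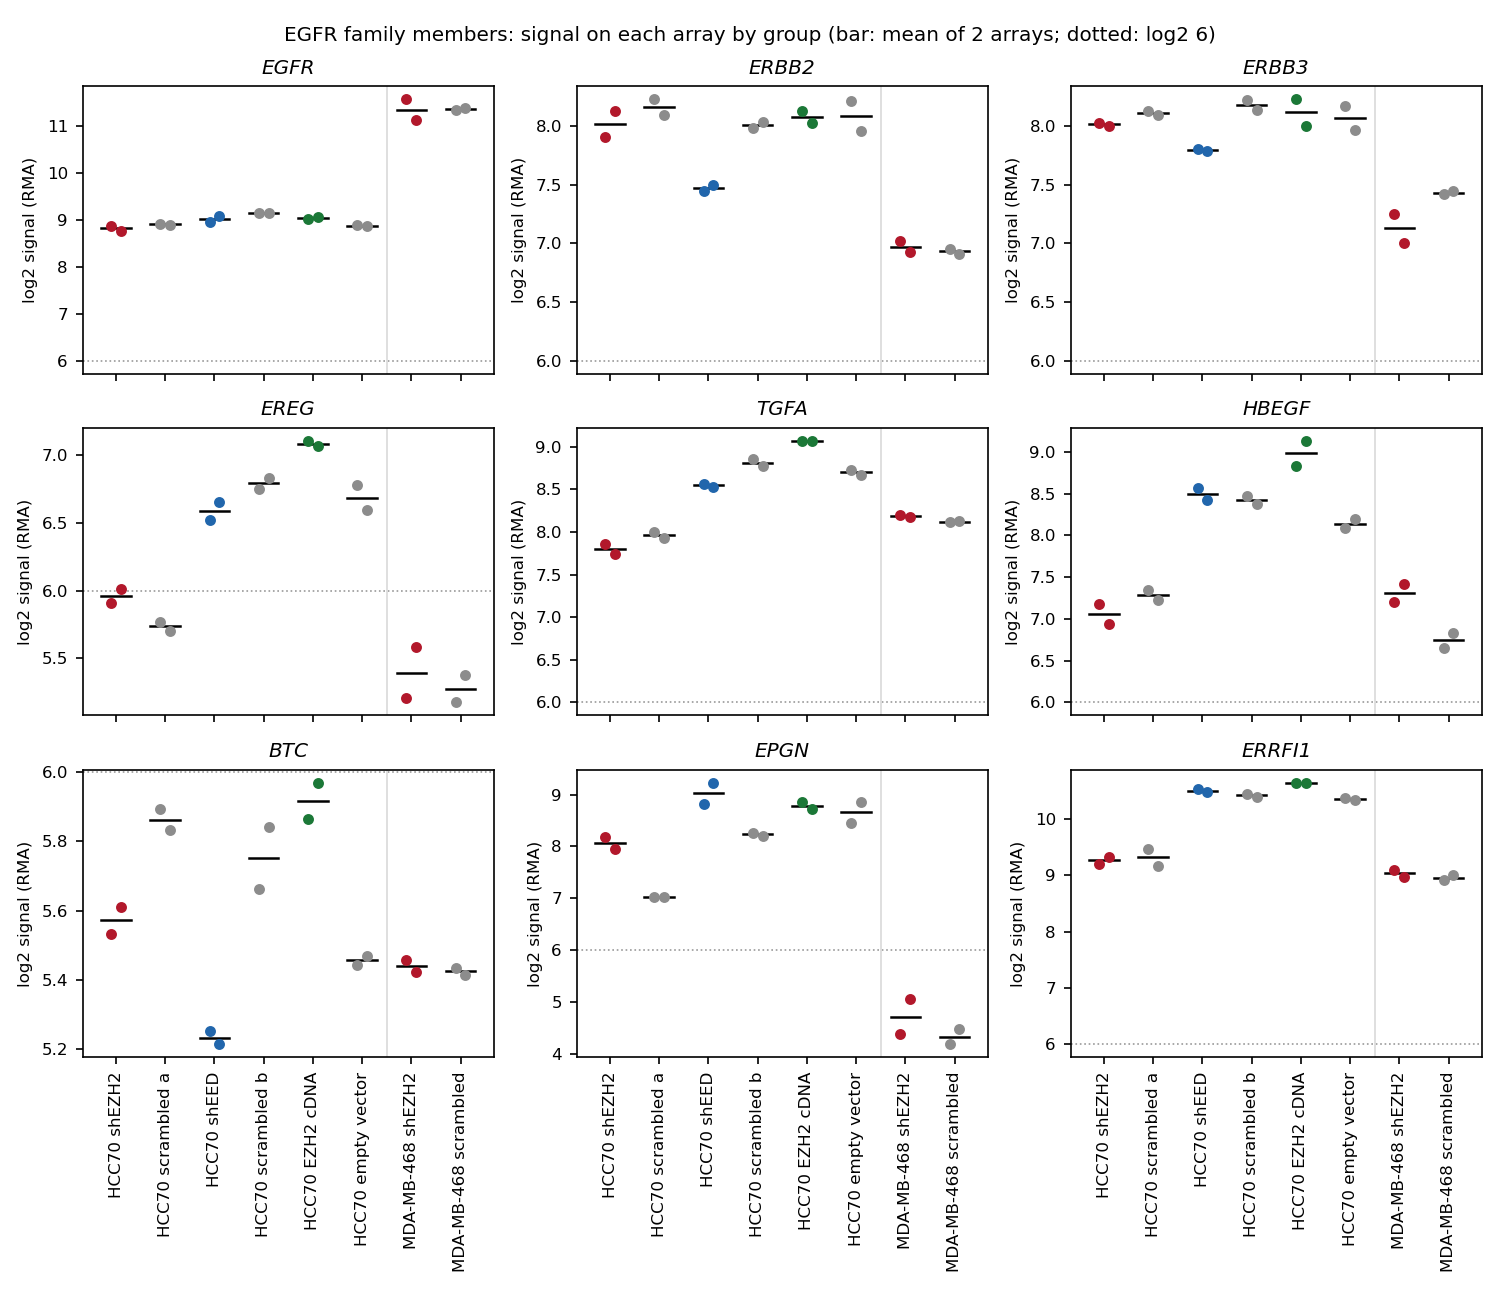
Log2 RMA signal (y axis) of each of the 9 genes on both arrays of each group (points), with the group mean as a bar and the floor of log2 6 as a dotted line; the vertical line separates HCC70 from MDA-MB-468. EGFR is near 9 on all HCC70 arrays and above 11 on all MDA-MB-468 arrays, while EREG, TGFA, HBEGF and ERRFI1 are low in HCC70 shEZH2 and scrambled set a and higher in the other HCC70 groups.

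The lines differed in all 8 tested genes. With scrambled shRNA, EGFR was 5.04-fold higher in MDA-MB-468 than in HCC70, and the other 7 genes were lower than the mean of the scrambled sets. For TGFA that direction rested on set b, since it was 0.15 higher than in set a, which was not called (adjusted p = 0.072). This share of 8 of 8 stood against 69.2% of all tested clusters called between the lines. The median size of the difference was 1.05 over the 8 genes and 0.44 over all tested clusters. EREG and EPGN reached the floor on HCC70 arrays only. They entered the test through the line where they were higher, and the share and the median include them. These are bulk signals, in which fewer cells expressing a gene and less RNA per cell cannot be told apart.

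Among the treatments, HCC70 shEZH2 cells differed from set a in 1 of the 8 genes (EPGN), with 11.4% of all tested clusters called. HCC70 shEED cells differed from set b in 4 of 8 (ERBB2, ERBB3, TGFA and EPGN), with 14.2% of clusters called. The EZH2 cDNA cells differed from the empty vector cells in 2 of 8 (TGFA and HBEGF), with 0.977% called. MDA-MB-468 shEZH2 cells differed from their scrambled control in 1 of 8 (HBEGF), with 8.30% called. The median size of the change over the 8 genes, against that over all tested clusters, was 0.16 and 0.15 for HCC70 shEZH2, 0.24 and 0.15 for shEED, 0.23 and 0.10 for the EZH2 cDNA, and 0.10 and 0.15 for MDA-MB-468 shEZH2.

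The HCC70 control groups differed from each other as well. Scrambled set b was higher than set a in 5 of the 8 genes, EREG, TGFA, HBEGF, EPGN and ERRFI1, where 22.7% of all tested clusters were called. The median size of that difference was 0.95 over the 8 genes and 0.19 over all tested clusters. The empty vector cells were higher than the mean of the scrambled sets in 4 of 8 (EREG, TGFA, EPGN and ERRFI1), with 10.9% of clusters called. These 4 calls rested on set a: against set b alone limma called 0 of the 8 genes (2 at an unadjusted p under 0.05, EGFR and HBEGF, both lower), and the values of EREG, TGFA and ERRFI1 turned below 0. Every comparison that uses a scrambled set shares its arrays with these, so the comparisons are not independent of each other.

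**Figure D2:**
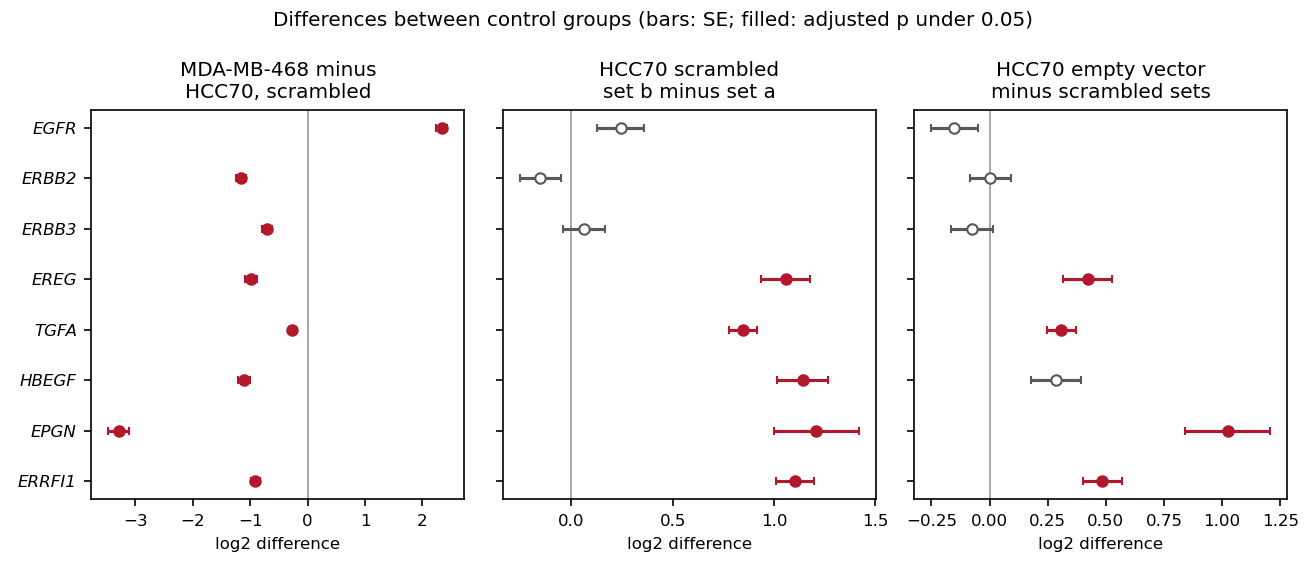
Log2 difference with its standard error (x axis) for the 8 tested genes between control groups: MDA-MB-468 minus HCC70 with scrambled shRNA, HCC70 scrambled set b minus set a, and HCC70 empty vector minus the scrambled sets; filled points passed an adjusted p of 0.05. EGFR alone lies above 0 between the lines, and 4 ligands and ERRFI1 lie near 1 between the scrambled sets.

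EGFR, the receptor for EGF, TGFA and the other ligands measured here, separated the lines and varied little within HCC70. It lay at 11.34 and 11.37 in MDA-MB-468 scrambled cells, against 8.91 and 8.88 in HCC70 set a and 9.13 and 9.15 in HCC70 set b. No arrays overlapped between the lines, and the difference was 2.33 ± 0.10 (SE; adjusted p = 1.68e-09). Within HCC70 the 12 arrays of EGFR spanned 0.38 log2 units, from 8.76 to 9.15. EGFR lay at 8.86 and 8.76 in HCC70 shEZH2 cells against the set a values, and at 8.95 and 9.07 in shEED cells against the set b values. In EZH2 cDNA cells it lay at 9.01 and 9.05, against 8.87 and 8.86 with the empty vector. The arrays did not overlap in these 3 HCC70 comparisons, yet the differences of -0.08, -0.13 and 0.16 did not pass the test (SE 0.12 each; adjusted p = 0.705, 0.537 and 0.71). In MDA-MB-468, EGFR lay at 11.56 and 11.11 with shEZH2, on both sides of the scrambled arrays (difference -0.02, adjusted p = 0.948). Set b minus set a was 0.24 for EGFR (adjusted p = 0.153), which passed the threshold when those 4 arrays were fitted alone (adjusted p = 0.0227). In order of group means the MDA-MB-468 scrambled and shEZH2 groups came above HCC70 set b, EZH2 cDNA, shEED, set a, empty vector and shEZH2. Arrays of neighbours in that order overlapped between the MDA-MB-468 groups, between EZH2 cDNA and shEED, and between empty vector and shEZH2.

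ERBB2, also called HER2, has no known ligand of its own and pairs with the other receptors; it was lower in the shEED cells. ERBB2 lay at 7.45 and 7.499 in HCC70 shEED cells, against 7.99 and 8.03 in set b. Both shEED arrays lay below all other 10 HCC70 arrays, which ran from 7.91 to 8.23. The change was -0.54 ± 0.10, 1.45-fold lower (SE; adjusted p = 0.00452), and it kept its call without any 1 of the 4 arrays. Against set a in place of set b, and against the empty vector, ERBB2 was also lower in the shEED cells, by -0.69 and -0.61. ERBB2 lay at 7.91 and 8.13 in HCC70 shEZH2 cells, against 8.23 and 8.09 in set a. These arrays overlapped, and the difference of -0.14 did not pass the test (adjusted p = 0.412). The shEZH2 change minus the shEED change of ERBB2 was 0.39 (adjusted p = 0.139). The MDA-MB-468 arrays of ERBB2 lay at 7.02 and 6.92 with shEZH2 and at 6.95 and 6.91 with scrambled shRNA, all below every HCC70 array. The scrambled groups differed by -1.16 ± 0.09, 2.23-fold lower in MDA-MB-468 (adjusted p = 2.58e-07). In order of group means, HCC70 set a, empty vector, EZH2 cDNA, shEZH2 and set b overlapped from neighbour to neighbour, followed at a distance by shEED and then by the overlapping MDA-MB-468 groups.

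ERBB3, which binds neuregulins and signals mainly by pairing with ERBB2 or EGFR, followed ERBB2 in direction in the shEED cells and between the lines. ERBB3 lay at 7.80 and 7.79 in shEED cells, against 8.22 and 8.14 in set b. The shEED arrays again lay below all other HCC70 arrays, and the change was -0.38 ± 0.10 (SE; adjusted p = 0.0291). That call ended without any 1 of the 4 arrays (-0.42 to -0.34, adjusted p up to 0.189) and against the empty vector (-0.28, adjusted p = 0.101). ERBB3 lay at 8.03 and 8.01 in HCC70 shEZH2 cells, against 8.13 and 8.10 in set a, a difference of -0.10 (adjusted p = 0.605). In MDA-MB-468 it lay at 7.25 and 7.004 with shEZH2, against 7.42 and 7.45 with scrambled shRNA. Those arrays did not overlap, and the difference of -0.31 missed the threshold (adjusted p = 0.0881). Between the lines the scrambled groups differed by -0.71 ± 0.09, 1.64-fold lower in MDA-MB-468 (adjusted p = 1.97e-05). In order of means, HCC70 set b, EZH2 cDNA, set a, empty vector and shEZH2 overlapped from neighbour to neighbour, and shEED, MDA-MB-468 scrambled and MDA-MB-468 shEZH2 followed without overlap. Over the 12 HCC70 arrays ERBB2 and ERBB3 correlated at r = 0.838, a description over arrays that share their groups.

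EPGN encodes epigen, a low-affinity EGFR ligand, and was higher in both HCC70 knockdowns than in the control assigned to each. EPGN lay at 8.18 and 7.94 in shEZH2 cells, against 7.03 and 7.02 in set a. The groups did not overlap, and the change was 1.03 ± 0.21, 2.05-fold higher (SE; adjusted p = 0.0089). EPGN lay at 8.82 and 9.22 in shEED cells, against 8.26 and 8.21 in set b, a change of 0.79 ± 0.21, 1.72-fold higher (adjusted p = 0.027). Those groups did not overlap either. The shEZH2 call ended without shEZH2 array 1 or either set a array (0.92 to 1.15, adjusted p up to 0.0611). The shEED call ended without shEED array 2 or either set b array (0.58 to 0.99, adjusted p up to 0.23). Set b lay above set a by 1.21 ± 0.21 for EPGN (adjusted p = 0.00199), so the shEZH2 value turned with the control: against set b it was -0.17 (adjusted p = 0.567) and against the empty vector -0.60 (adjusted p = 0.0586). Against set a the shEED value was 1.99, and against the empty vector 0.37 (adjusted p = 0.268).

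In EZH2 cDNA cells, EPGN lay at 8.85 and 8.72, against 8.45 and 8.86 with the empty vector, and the arrays overlapped (difference 0.13, adjusted p = 0.897). The empty vector cells were higher than the mean of the scrambled sets by 1.02 ± 0.18 (adjusted p = 0.00547), with 0.42 against set b alone (adjusted p = 0.371). The call against the mean did not pass without empty vector array 2 (0.82, adjusted p = 0.0536). In MDA-MB-468 all 4 EPGN arrays lay below the floor, at 4.39 and 5.06 with shEZH2 and at 4.19 and 4.49 with scrambled shRNA. The measured difference between MDA-MB-468 and HCC70 scrambled cells was -3.29 ± 0.18 (adjusted p = 1.42e-08). Set against the floor, EPGN in MDA-MB-468 was at least 3.10-fold lower than the mean of the scrambled sets and at least 2.04-fold lower than set a alone. By group mean the order was shEED, EZH2 cDNA and empty vector, overlapping from neighbour to neighbour, then set b, shEZH2 and set a without overlap, and then the MDA-MB-468 groups.

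HBEGF encodes heparin-binding EGF-like growth factor, a ligand of EGFR and ERBB4 that is also an early response gene of growth factor signalling. It was the ligand with the largest called change under the EZH2 cDNA and the only one called under EZH2 knockdown in MDA-MB-468. With the EZH2 cDNA it lay at 8.83 and 9.13, against 8.09 and 8.19 with the empty vector. Both cDNA arrays were above all other HCC70 arrays, and the change was 0.84 ± 0.12, 1.79-fold higher (SE; adjusted p = 0.00886). The call ended without cDNA array 2 (0.69) or empty vector array 1 (0.79), with adjusted p up to 0.124. It also ended when only those 4 arrays were fitted (adjusted p = 0.201), a limma fit in which 0 of all tested clusters passed and 1405 had an unadjusted p under 0.05.

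In MDA-MB-468, HBEGF lay at 7.20 and 7.41 with shEZH2, against 6.66 and 6.83 with scrambled shRNA. The groups did not overlap, and the change was 0.56 ± 0.12, 1.48-fold higher (SE; adjusted p = 0.0202). It lost its call without shEZH2 array 2 or either scrambled array (0.46 to 0.67, adjusted p up to 0.091). In HCC70, HBEGF lay at 7.18 and 6.94 with shEZH2, against 7.35 and 7.22 in set a, without overlap, a difference of -0.23 (adjusted p = 0.285). The shEZH2 change in HCC70 minus that in MDA-MB-468 was -0.79 ± 0.18 (adjusted p = 0.0151). HBEGF was the only 1 of the 8 genes called in this contrast, in which 13.2% of all tested clusters passed. The median size of the contrast was 0.20 over the 8 genes and 0.23 over all tested clusters.

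The HBEGF values of the HCC70 knockdowns depended on the scrambled set. Set b lay at 8.47 and 8.38, above set a by 1.14 ± 0.12, 2.205-fold (SE; adjusted p = 8.70e-05). Against set b the shEZH2 difference was -1.37 (adjusted p = 1.53e-05). The shEED arrays lay at 8.57 and 8.43, a difference of 0.07 from set b (adjusted p = 0.778), with overlapping arrays, and of 1.21 from set a (adjusted p = 2.77e-05). The empty vector cells lay above the mean of the scrambled sets by 0.29, short of the threshold (adjusted p = 0.114). HBEGF was lower in MDA-MB-468 than in HCC70 scrambled cells by -1.11 ± 0.11, 2.16-fold (adjusted p = 2.10e-06). The size depended on the HCC70 set: the MDA-MB-468 mean of 6.74 stood against 7.28 in set a and 8.42 in set b. In order of group means, EZH2 cDNA stood alone, shEED and set b overlapped, empty vector stood alone, MDA-MB-468 shEZH2 and HCC70 set a overlapped, and HCC70 shEZH2 and MDA-MB-468 scrambled followed.

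TGFA, the gene of transforming growth factor alpha, a classical EGFR ligand, differed by up to 1.27 log2 units between HCC70 group means. With the EZH2 cDNA it lay at 9.06 and 9.07, against 8.73 and 8.67 with the empty vector. The cDNA arrays were above all other 14 arrays, and the change was 0.37 ± 0.07, 1.29-fold higher (SE; adjusted p = 0.0362). In shEED cells TGFA lay at 8.56 and 8.53, against 8.85 and 8.77 in set b, without overlap, a change of -0.27 ± 0.07 (adjusted p = 0.0266). Both calls ended without any 1 of their 4 arrays, with values of 0.33 to 0.40 for the cDNA (adjusted p up to 0.251) and -0.31 to -0.23 for shEED (adjusted p up to 0.209). In shEZH2 cells TGFA lay at 7.86 and 7.74, against 8.001 and 7.93 in set a, a difference of -0.17 (adjusted p = 0.162). Set b exceeded set a by 0.85 ± 0.07 for TGFA (adjusted p = 1.30e-05). Against set b the shEZH2 difference was -1.01 (adjusted p = 1.85e-06), and against set a the shEED difference turned to 0.58 (adjusted p = 9.34e-05). The empty vector cells exceeded the mean of the scrambled sets by 0.31 (adjusted p = 0.00959), which did not pass without empty vector array 1 (adjusted p = 0.071). They lay below set b, without overlap, and against set b alone the difference was -0.11 (adjusted p = 0.476).

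Between the lines TGFA was intermediate. MDA-MB-468 scrambled cells lay at 8.11 and 8.13, between HCC70 set a and set b, and the difference from the mean of both sets was -0.27 ± 0.06 (SE; adjusted p = 0.00205). Against set a alone that difference was 0.15 (adjusted p = 0.072), so its direction rested on set b. MDA-MB-468 shEZH2 cells lay at 8.19 and 8.18 (difference 0.07, adjusted p = 0.602). Group means ran in the order EZH2 cDNA, set b, empty vector, shEED, MDA-MB-468 shEZH2, MDA-MB-468 scrambled, HCC70 set a and HCC70 shEZH2, and no neighbours overlapped.

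EREG encodes epiregulin, a ligand of EGFR and ERBB4, and lay near the floor. In HCC70 shEZH2 cells EREG lay at 5.91 and 6.01, against 5.77 and 5.70 in set a, so 3 of these 4 arrays were below the floor (difference 0.22, adjusted p = 0.274). In shEED cells it lay at 6.52 and 6.65, against 6.75 and 6.83 in set b (difference -0.20, adjusted p = 0.32). With the EZH2 cDNA it lay at 7.11 and 7.07, above the 6.78 and 6.59 of the empty vector. The arrays did not overlap in any of the 3 comparisons, and the cDNA difference of 0.40 did not pass the test either (adjusted p = 0.204). Set b exceeded set a by 1.06 ± 0.12 (SE; adjusted p = 0.000125), and set a being below the floor makes the size uncertain. Against set b the shEZH2 difference of EREG was -0.83 (adjusted p = 0.000467), and against set a the shEED difference was 0.85 (adjusted p = 0.000263). The empty vector cells exceeded the mean of the scrambled sets by 0.42 (adjusted p = 0.0264), but against set b alone the difference was -0.11, with overlapping arrays (adjusted p = 0.733). The call against the mean did not pass without empty vector array 1 or any 1 of the 4 scrambled arrays (0.33 to 0.51, adjusted p up to 0.17). All 4 MDA-MB-468 arrays of EREG were below the floor, at 5.20 and 5.58 with shEZH2 and at 5.17 and 5.38 with scrambled shRNA. The difference between the scrambled groups of the lines was -0.99 ± 0.11 (adjusted p = 4.72e-06). HCC70 set a was below the floor too, so the floor sets no lowest fold for EREG against it. EZH2 cDNA led the order of means, set b, empty vector and shEED overlapped from neighbour to neighbour, shEZH2 and set a followed, and the overlapping MDA-MB-468 groups came last.

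BTC, a ligand of EGFR and ERBB4, stayed below the floor, so its values carry no test. They lay at 5.53 and 5.61 in HCC70 shEZH2 cells, 5.89 and 5.83 in set a, 5.25 and 5.21 in shEED cells, and 5.66 and 5.84 in set b. Under the EZH2 cDNA they lay at 5.86 and 5.97, against 5.44 and 5.47 with the empty vector. The MDA-MB-468 arrays ran from 5.42 to 5.46.

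ERRFI1, also called MIG6, binds the EGFR kinase domain and inhibits it, and its transcription is known to be induced by receptor signalling. None of the treatments passed the test for it. ERRFI1 lay at 9.20 and 9.33 in HCC70 shEZH2 cells, against 9.46 and 9.17 in set a, with overlap (difference -0.05, adjusted p = 0.775). It lay at 10.53 and 10.47 in shEED cells, against 10.45 and 10.40 in set b, without overlap (difference 0.08, adjusted p = 0.671). With the EZH2 cDNA it lay at 10.64 and 10.64, above the 10.37 and 10.34 of the empty vector and above all other arrays, a difference of 0.29 ± 0.10 (SE; adjusted p = 0.269). Set b exceeded set a by 1.10 ± 0.10, 2.15-fold (adjusted p = 1.70e-05), and the empty vector cells exceeded the mean of the scrambled sets by 0.48 ± 0.08 (adjusted p = 0.00447). Both calls held without any 1 of their arrays. The second rested on set a, however: the empty vector arrays lay below those of set b without overlap, and against set b alone the difference was -0.07 (adjusted p = 0.792). Against set b the shEZH2 difference of ERRFI1 was -1.16 (adjusted p = 6.95e-06), and against set a the shEED difference was 1.18 (adjusted p = 4.69e-06). MDA-MB-468 cells lay at 9.09 and 8.98 with shEZH2, against 8.91 and 9.01 with scrambled shRNA. The scrambled groups of the lines differed by -0.91 ± 0.08, 1.88-fold lower in MDA-MB-468 (adjusted p = 1.15e-06). The size depended on the HCC70 set: the MDA-MB-468 mean of 8.96 stood against 9.32 in set a and 10.42 in set b. In order of means EZH2 cDNA, shEED, set b and empty vector did not overlap, and below a gap of 1.04 came the overlapping set a and shEZH2 groups of HCC70 and then the MDA-MB-468 groups.

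**Figure D3:**
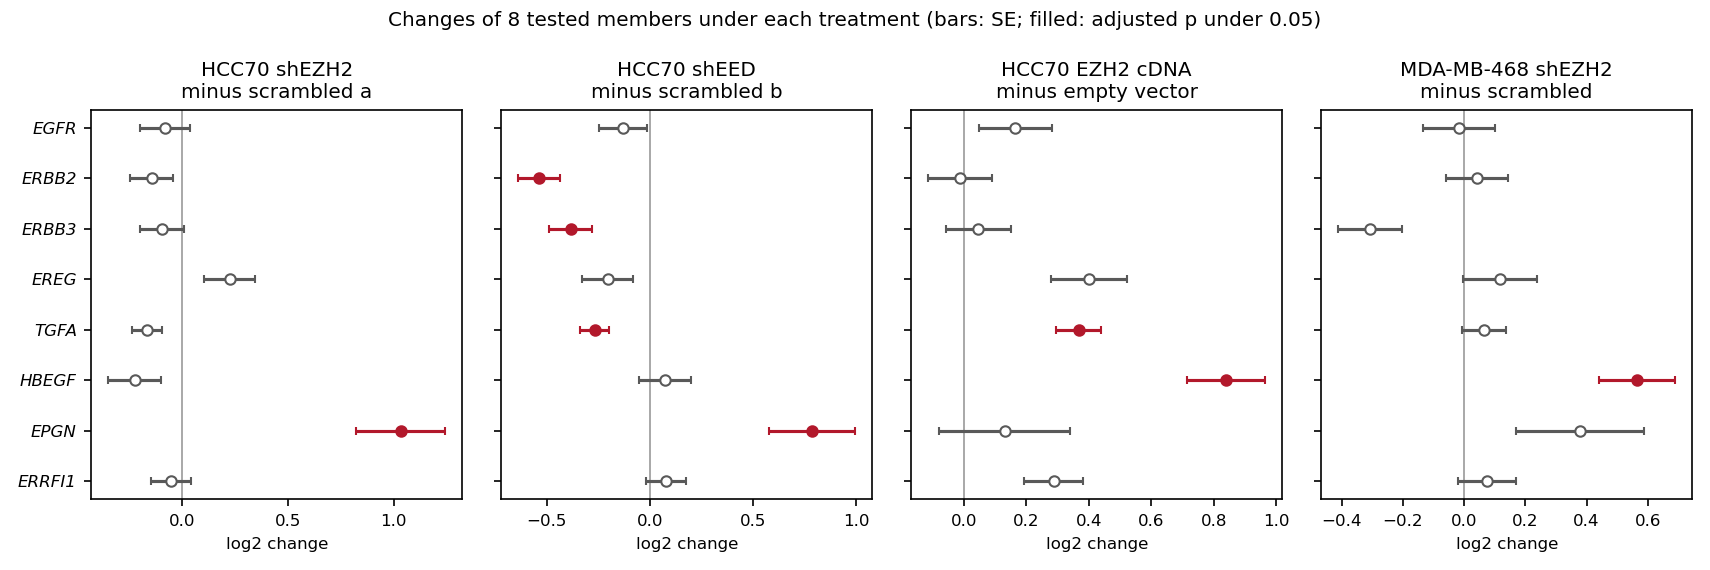
Log2 change with its standard error (x axis, with its own scale in each panel) of the 8 tested genes under each of the 4 treatments; filled points passed an adjusted p of 0.05. EPGN is called higher in both HCC70 knockdowns, ERBB2, ERBB3 and TGFA lower with shEED, TGFA and HBEGF higher with the EZH2 cDNA, and HBEGF higher with shEZH2 in MDA-MB-468.

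In HCC70 the ligand values of both knockdowns moved with the scrambled set used as control. In the contrast of the HCC70 shEZH2 change with the shEED change, each against its own set, 0 of the 8 genes passed in limma, against 6.31% of all tested clusters. At an unadjusted p under 0.05, limma held 2 of the 8, ERBB2 (adjusted p = 0.139) and EREG (adjusted p = 0.171). The median size of the contrast was 0.27 over the 8 genes and 0.18 over all tested clusters. Set directly against each other, shEZH2 cells were lower than shEED cells in TGFA (-0.75), HBEGF (-1.44), EPGN (-0.96), EREG (-0.63) and ERRFI1 (-1.23) and higher in ERBB2 (0.54), and these 6 genes passed the test. The largest adjusted p among them was 0.00479, for EPGN. The scrambled sets differed in the same direction as the shEED and shEZH2 cells in the 4 ligands and ERRFI1.

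**Figure D4:**
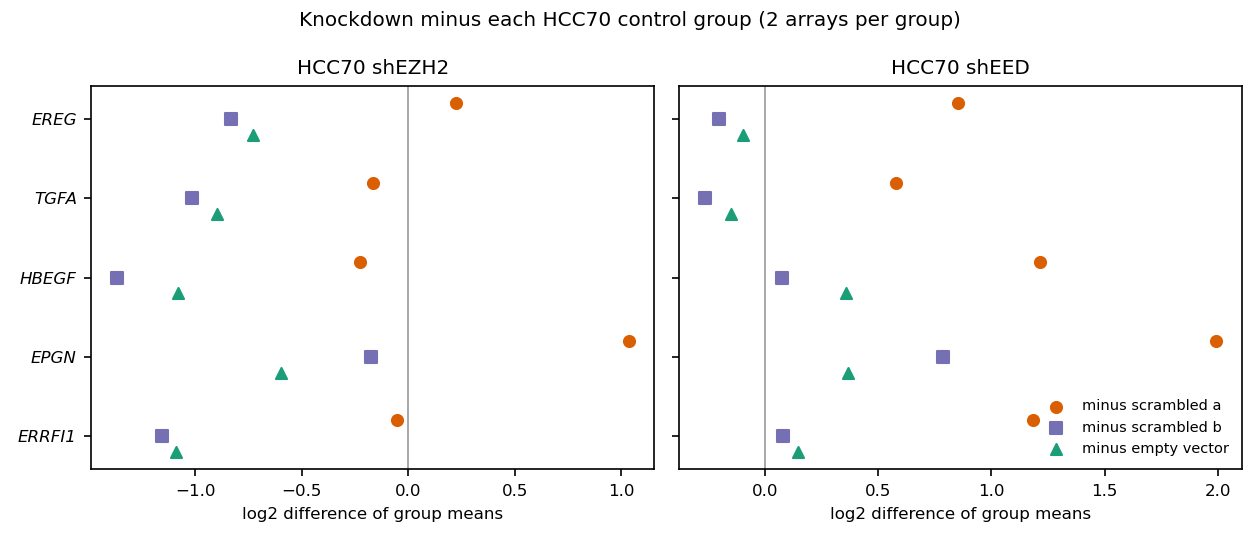
Log2 difference of group means (x axis) for 4 ligands and ERRFI1, taken from the HCC70 shEZH2 cells (left) and shEED cells (right) against each of the HCC70 control groups (markers). For shEZH2 the values against set a lie between -0.23 and 0.22 except EPGN at 1.03, and all values against set b and the empty vector lie below 0; for shEED the values against set a lie between 0.58 and 1.99.

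Over the 12 HCC70 arrays EREG, TGFA, HBEGF and ERRFI1 followed each other closely, with Pearson's r from 0.925 (EREG and HBEGF) to 0.96 (HBEGF and ERRFI1). EPGN followed them less closely, with r from 0.662 to 0.79. EGFR correlated with EREG, TGFA, HBEGF and ERRFI1 at 0.639 to 0.726. These are descriptions over 12 arrays in 6 groups that share duplicates, control sets and normalization. Among 11145 tested genes with 1 symbol, those most like each gene over these arrays had r above 0.92. They were AFTPH (0.939), GJC1 (0.934) and SCAF4 (0.925) for EGFR, DEF8 (0.951), FCSK (0.946) and BATF (0.943) for ERBB2, and DPYD (0.943), SHANK2 (0.938) and PCYT2 (0.93) for ERBB3. For the ligands they were TRIO (0.994), DAPP1 (0.986) and PDP1 (0.986) for EREG, KIAA0040 (0.997), SLC20A2 (0.992) and C3orf52 (0.991) for TGFA, and PPP1R15A (0.983), RIPK2 (0.982) and PIM1 (0.981) for HBEGF. EPGN was most like ARHGAP21 (0.979), FMNL2 (0.976) and SENP5 (0.972), and ERRFI1 most like TRIM16 (0.99), KCTD10 (0.989) and PLK3 (0.986).

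Promoter windows are printed for 4 of the 5 genes that differed between the scrambled sets, all but TGFA. Each window runs from 250 bases before the annotated start to 50 bases after it, on the strand of the gene, from RefSeq (GRCh38.p14). Capitals mark matches on either strand to a GC box (GGGCGG) or a TATA box (TATAAA). HBEGF is at chr5:140346554-140346853 on the minus strand, ERRFI1 at chr1:8026260-8026559 on the minus strand, EREG at chr4:74364895-74365194 on the plus strand and EPGN at chr4:74308220-74308519 on the plus strand.
HBEGF: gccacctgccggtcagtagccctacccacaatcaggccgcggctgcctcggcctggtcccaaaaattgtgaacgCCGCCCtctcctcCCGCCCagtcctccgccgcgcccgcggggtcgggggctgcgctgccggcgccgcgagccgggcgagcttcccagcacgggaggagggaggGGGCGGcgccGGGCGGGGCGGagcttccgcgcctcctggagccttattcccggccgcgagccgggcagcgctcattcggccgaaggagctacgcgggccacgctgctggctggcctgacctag
ERRFI1: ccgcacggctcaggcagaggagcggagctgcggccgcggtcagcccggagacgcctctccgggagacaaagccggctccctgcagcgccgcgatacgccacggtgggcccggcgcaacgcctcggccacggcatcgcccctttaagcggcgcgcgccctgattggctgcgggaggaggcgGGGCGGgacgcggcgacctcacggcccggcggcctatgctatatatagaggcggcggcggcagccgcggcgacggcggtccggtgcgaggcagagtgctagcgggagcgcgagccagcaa
EREG: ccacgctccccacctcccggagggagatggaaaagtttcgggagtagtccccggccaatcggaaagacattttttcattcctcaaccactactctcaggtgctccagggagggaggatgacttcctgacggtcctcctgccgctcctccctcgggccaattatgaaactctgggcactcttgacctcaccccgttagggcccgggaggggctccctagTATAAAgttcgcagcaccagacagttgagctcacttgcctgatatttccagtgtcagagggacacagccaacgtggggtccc
EPGN: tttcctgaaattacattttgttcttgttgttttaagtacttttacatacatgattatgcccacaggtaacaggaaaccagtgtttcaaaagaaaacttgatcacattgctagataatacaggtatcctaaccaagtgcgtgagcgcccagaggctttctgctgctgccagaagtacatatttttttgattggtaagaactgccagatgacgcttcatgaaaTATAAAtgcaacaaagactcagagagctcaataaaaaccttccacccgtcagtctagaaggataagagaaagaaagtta
The HBEGF and ERRFI1 windows were 75% and 74.7% G and C, against 57.7% for EREG and 37.7% for EPGN, where the median of 35116 promoters was 58.7%. HBEGF held 5 GC box matches and ERRFI1 held 1, at -70, and neither held a match to TATAAA. The ERRFI1 window does hold TATATATA downstream of its GC box, which the search for TATAAA does not count. EREG and EPGN held a TATA box match each, at -32 and -29 from the start, and no GC box. TGFA, the gene not printed, had a window of 75.3% G and C with 4 GC box matches. Its other window was 63% G and C with no GC box match, and neither window held a match to TATAAA. A GC box was found in 45.0% of all promoters and a TATA box in 11.5%.

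Windows were found for 8 of the 9 genes, 10 windows in all, with a pair each for EGFR and TGFA. A match to TGANTCA, a broad form of the AP-1 site (in 7.71% of all promoters), was in the ERBB2 window, as TGATTCA. In 1 of the EGFR windows it was found as TGAGTCA and TGACTCA. The ERBB2 window also held 2 ETS matches (CCGGAAGT, in 4.14% of promoters). No window held a cyclic AMP response element (TGACGTCA, 1.85%) or a CArG box (CCWWWWWWGG with W as A or T, 1.29%). Motifs were searched on both strands, and a match is a description of letters in the window. EPGN, EREG and BTC all lie on chromosome 4; EPGN and EREG were called higher in set b than in set a, and BTC was below the floor.

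The other genes of the pathway were taken from lists by role, and counts are of tested genes past an adjusted p of 0.05. Of 7 other ligands and receptors, EGF and NRG2 were tested, and the clusters of ERBB4, NRG1, NRG3 and NRG4 stayed below the floor. The EGF gene itself was lower in both HCC70 knockdowns. It changed by -0.74 ± 0.12 in shEZH2 cells against set a (SE; adjusted p = 0.00284) and by -0.96 ± 0.12 in shEED cells against set b (adjusted p = 0.000347). Set b exceeded set a by 0.62 for EGF (adjusted p = 0.00423), and the shEZH2 mean of 5.70 was below the floor. With the sets exchanged EGF stayed lower, by -1.36 in shEZH2 cells against set b and by -0.34 in shEED cells against set a (adjusted p = 0.0487). AREG, which had no cluster with its symbol alone, was not analysed here.

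Of 12 genes of ligand shedding and maturation, 2 were higher and 0 lower in HCC70 shEZH2 cells, and 1 higher and 5 lower in shEED cells. That is 16.7% and 50% of the list, against 11.4% and 14.2% of all tested clusters. ADAM12, a protease that can release EGF family ligands, was higher in both, by 0.87 (adjusted p = 0.00194) and 0.75 (adjusted p = 0.00345). TIMP3, an inhibitor of ADAM17, was higher in shEZH2 cells (0.78, adjusted p = 0.00131) and lower in shEED cells (-0.77, adjusted p = 0.00101). Its 2 changes differed by 1.55 (adjusted p = 0.000165), a call that held without any 1 of the 8 arrays. Against the other set the TIMP3 values were 0.34 for shEZH2 (adjusted p = 0.0486) and -0.33 for shEED (adjusted p = 0.0437), and against the empty vector the shEED value was -0.04 (adjusted p = 0.857). In MDA-MB-468 shEZH2 cells 0 of the 12 were higher and 3 lower, which is 25% against 8.30% of all clusters. Among them were TIMP3 (-1.45, adjusted p = 5.21e-05) and ADAM17 (-0.56, adjusted p = 0.00297), the main sheddase of TGFA and HBEGF. TIMP3 alone of the 12 was called with the EZH2 cDNA (0.56, adjusted p = 0.0468), with 0.977% of all clusters called. That call ended without any 1 of the 4 arrays (0.48 to 0.64), and against the scrambled sets the value was 0.05 (adjusted p = 0.808). For ADAM19 the shEED mean of 4.57 and the set b mean of 5.71 were both below the floor, so its measured difference of -1.14 (adjusted p = 0.00101) is one between low signals, and it was -0.34 against the empty vector (adjusted p = 0.208).

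Of 24 tested adaptors and signal transducers, 0 were called by limma in HCC70 shEZH2 cells (4 at an unadjusted p under 0.05), 3 were lower in shEED cells, 1 was higher with the EZH2 cDNA and 1 was lower in MDA-MB-468 shEZH2 cells. The shares of 12.5% in shEED and 4.17% in MDA-MB-468 shEZH2 cells were not above the 14.2% and 8.30% of all tested clusters; that of 4.17% with the EZH2 cDNA is a single gene, against 0.977%. The adaptor gene GRB2 (-0.34, adjusted p = 0.00924) and the PI3 kinase subunit gene PIK3R1 (-0.56, adjusted p = 0.0325) fell in shEED cells. GRB7, an adaptor gene near ERBB2 on chromosome 17, was higher with the EZH2 cDNA (0.52, adjusted p = 0.0369), and the kinase gene ARAF was lower in MDA-MB-468 shEZH2 cells (-0.52, adjusted p = 0.00496). Of these, the GRB2 call ended without shEED array 2 or either set b array (-0.38 to -0.30), the PIK3R1 call without any 1 of its arrays (-0.60 to -0.53), the GRB7 call without either cDNA array or empty vector array 2 (0.38 to 0.65), and the ARAF call without scrambled array 2 (-0.57 to -0.48). Against the empty vector the shEED values were -0.05 for GRB2 (adjusted p = 0.702) and -0.36 for PIK3R1 (adjusted p = 0.153), and against the scrambled sets the cDNA value of GRB7 was 0.09 (adjusted p = 0.59).

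Of 19 tested receptor inhibitors, ubiquitin ligases and phosphatases, 2 were higher and 1 lower in HCC70 shEZH2 cells, 1 higher and 3 lower in shEED cells, 0 called with the EZH2 cDNA (3 at an unadjusted p under 0.05) and 2 lower in MDA-MB-468 shEZH2 cells. These were 15.8%, 21.1%, 0% and 10.5% of the list, against 11.4%, 14.2%, 0.977% and 8.30% of all tested clusters. STAM, an endosomal sorting gene, was higher in both HCC70 knockdowns (0.57, adjusted p = 0.00218, and 0.40, adjusted p = 0.0123). UBASH3B was lower in both (-0.28, adjusted p = 0.0363, and -0.58, adjusted p = 0.000407). Against the empty vector these calls ended: STAM was 0.18 (adjusted p = 0.175) in shEZH2 and 0.26 (adjusted p = 0.0766) in shEED cells, and UBASH3B was -0.01 (adjusted p = 0.916) and -0.04 (adjusted p = 0.764). The ubiquitin ligase gene CBLB was higher in shEZH2 cells (0.52, adjusted p = 0.00581), and CBLC was lower in shEED cells (-0.54, adjusted p = 0.00458). The CBLC call ended against set a (-0.21, adjusted p = 0.124) and against the empty vector (-0.26, adjusted p = 0.115). In MDA-MB-468 shEZH2 cells the phosphatase genes PTPN2 (-0.50, adjusted p = 0.0417) and PTPRK (-0.35, adjusted p = 0.029) were lower. The shEED call of STAM (0.38 to 0.41) and the shEZH2 call of UBASH3B (-0.32 to -0.24) ended without any 1 of their arrays. The CBLB call ended without set a array 2 (0.42 to 0.62), the PTPN2 call without shEZH2 array 1 or scrambled array 2 (-0.71 to -0.30), and the PTPRK call without either shEZH2 array or scrambled array 2 (-0.41 to -0.28).

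Of the pathway lists, the genes known to be induced after EGFR activation had the largest share called between the scrambled sets. The list was chosen with earlier results of these data known, so its shares are descriptions. The arrays do not measure receptor activity. In set b against set a, 20 of 25 tested genes were higher and 0 lower, which is 80% against 22.7% of all tested clusters, and the median difference was 0.59, against 0.01 over all tested clusters. LIF, a cytokine gene, differed by 2.71 ± 0.14 (SE; adjusted p = 5.29e-07), with set a below the floor at a mean of 5.07. PLAU, the urokinase gene, differed by 1.30 ± 0.11 (adjusted p = 1.13e-05). In HCC70 shEZH2 cells 4 of the 25 were higher and 1 lower than in set a, where 11.4% of all clusters were called. Against set b 0 were higher and 18 lower, with 26.7% of clusters called. DUSP6, a MAP kinase phosphatase gene, was higher (0.75, adjusted p = 0.00657), but its set a mean of 5.55 was below the floor and against set b the value turned to -0.47 (adjusted p = 0.0328). PLAUR, the urokinase receptor gene, was higher (0.43, adjusted p = 0.0268), with -0.13 against set b, and SPRY2, a feedback inhibitor gene, was lower (-0.38, adjusted p = 0.0142), with -1.34 against set b. The DUSP6 call ended without set a array 1 (0.52 to 0.98), the PLAUR call without shEZH2 array 1 or either set a array (0.34 to 0.51), and the SPRY2 call without shEZH2 array 1 or set a array 2 (-0.48 to -0.28).

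In shEED cells 4 of the 25 were higher and 9 lower than in set b, where 14.2% of all clusters were called. Against set a 18 were higher and 1 lower, with 36.7% of clusters called. The early response genes EGR1 (0.73, adjusted p = 0.000723) and JUN (0.47, adjusted p = 0.00363) were higher, and PLAU (-1.07, adjusted p = 6.04e-05) and the cyclin gene CCND1 (-0.84, adjusted p = 5.29e-05) were lower. Against set a the PLAU value turned to 0.24 (adjusted p = 0.105), the CCND1 value was -0.17 (adjusted p = 0.124), no longer called, and JUN was higher by 1.65. Under the EZH2 cDNA 7 of the 25 were higher and 0 lower, with 0.977% of all clusters called, led by LIF (1.60 ± 0.14, adjusted p = 0.000555) and the phosphatase gene DUSP1 (1.05, adjusted p = 0.00664). The median change of the list was 0.37, against 0.02 over all tested clusters. The DUSP1 call ended without cDNA array 2 or empty vector array 1 (0.96 to 1.14). In MDA-MB-468 shEZH2 cells 3 of the 25 were higher and 2 lower, which is 20% against 8.30% of all clusters. DUSP6 (1.32 ± 0.14, adjusted p = 0.000439) and the ETS factor gene ETV4 (0.62, adjusted p = 0.00471) were higher there, and JUN (-0.37, adjusted p = 0.0253) and KLF10 (-0.27, adjusted p = 0.043) were lower. The calls of JUN (-0.45 to -0.30) and KLF10 (-0.30 to -0.25) ended without shEZH2 array 1 or either scrambled array, and that of KLF10 also without shEZH2 array 2. The empty vector cells were higher than the mean of the scrambled sets in 8 of the 25 and lower in 0, with 10.9% of all clusters called. That count rested on set a, against which 19 were higher; against set b alone 1 of the 25 was called, and it was lower, with 1.90% of all clusters called.

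The named pathway genes were also fitted with the compared arrays alone. All 9 named calls of HCC70 shEZH2, all 4 of the EZH2 cDNA and 7 of the 9 of MDA-MB-468 shEZH2 then missed the threshold, while all 13 of shEED kept it.

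**Figure D5:**
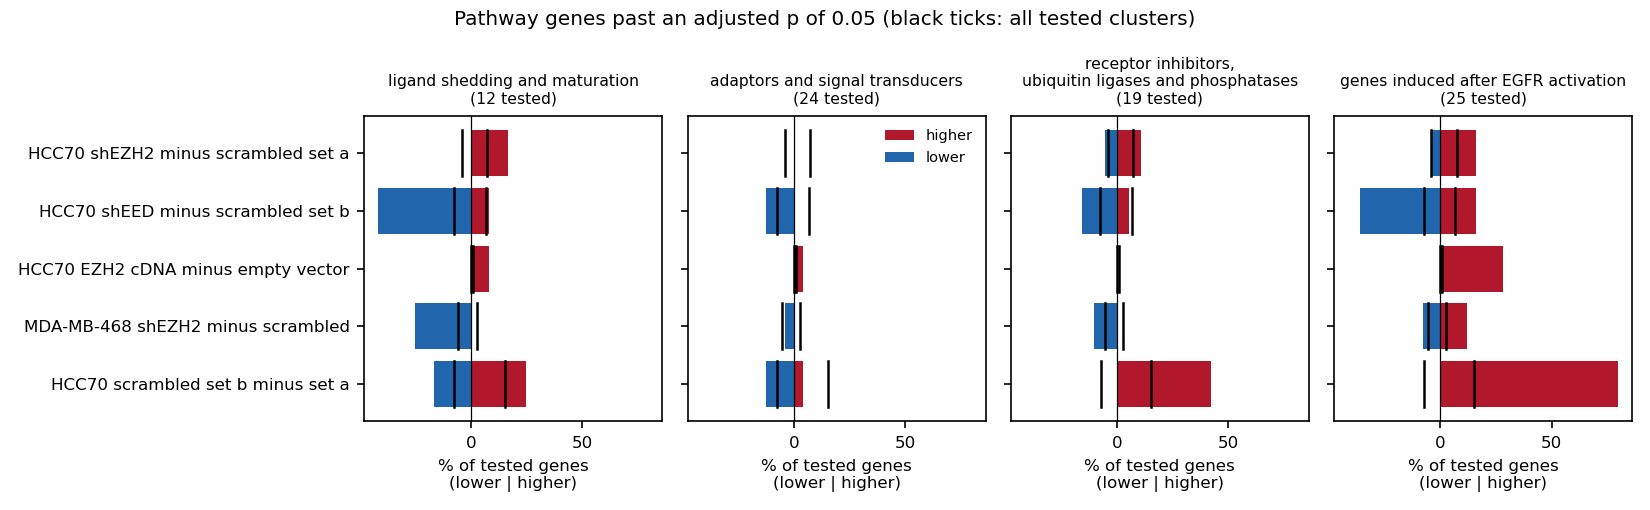
Share of the tested genes of 4 pathway lists (x axis, percent) called higher (right of 0) or lower (left of 0) in each of the 4 treatments and between the scrambled sets; black ticks give the same shares over all tested clusters. The longest bar is that of the genes induced after EGFR activation in set b against set a, 20 of 25.

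Between the lines, 20 of those 25 genes differed with scrambled shRNA, 6 higher and 14 lower in MDA-MB-468; against set a alone the split was 12 higher and 7 lower. EGR1 (1.42, adjusted p = 4.94e-08) and CCND1 (1.24, adjusted p = 2.21e-08) were higher in MDA-MB-468, and PLAUR (-1.53, adjusted p = 3.75e-08) and PLAU (-1.11, adjusted p = 5.59e-07) were lower. Among the shedding genes TIMP3 (2.17, adjusted p = 2.94e-09) and ADAM17 (0.56, adjusted p = 2.40e-05) were higher in MDA-MB-468, and ADAM12 (-2.62) was lower, with an MDA-MB-468 mean below the floor. ADAM19 differed by -1.82 with both means below the floor, at 4.17 in MDA-MB-468 and 5.98 in HCC70. Among the adaptors GAB2 (2.44, with an HCC70 mean below the floor) and the RAS activator gene SOS1 (0.83) were higher, and MAPK3 (-1.61), which encodes ERK1, and PIK3CB (-0.67) were lower. Of the inhibitors LRIG1 (1.08) and PTPN2 (1.42) were higher and STAM (-1.12) and SOCS4 (-0.63) lower. The adjusted p of these 8 adaptor and inhibitor genes was at most 6.13e-05. Called shares of the shedding (83.3%), adaptor (87.5%), inhibitor (84.2%) and induced (80.0%) lists stood beside the 69.2% of all tested clusters.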

How the data were processed

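Total RNA was profiled on single-channel arrays. Each deposited value is the log2 signal of a transcript cluster on an array, which the authors made with RMA in Affymetrix Expression Console per the submitters' processing notes; RMA corrects background, normalizes between arrays and summarises probes. Neither software versions nor the build behind the clusters are given in the sources used here. Gene symbols came from the platform annotation.

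From these values, limma 3.58.1 in R 4.3.3 estimated the mean of each of the 8 groups in 1 fit of the 16 arrays (lmFit, then eBayes; 8 residual and 3.69 prior degrees of freedom). The test covered 16175 of 33297 clusters, those at log2 6 or more on at least 2 arrays. Each of the comparisons was a contrast of this fit, two-sided, with Benjamini-Hochberg adjustment over all tested clusters and calls at 0.05. Errors are standard errors of the fit. The fit was tested on simulated data. Arrays give no read depth, so their number limits the precision. The scan dates were not used here.

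The genes, the pathway lists and the marker lists were chosen with earlier results of these data known. All 9 genes were named in every comparison, and from each pathway list the 2 called genes with the largest change in each direction. Likeness was Pearson's r over the HCC70 arrays. Promoter windows and neighbours came from RefSeq (GRCh38.p14). Other floors, normalizations, variance priors, control sets, a replicate block and fits without each array were run as alternatives.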

Additional observations from a re-analysis of the deposited data

Results flagged for a closer look

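The change of HBEGF under shEZH2 differed between the lines by -0.79 (HCC70 minus MDA-MB-468, adjusted p = 0.0151, limma interaction contrast). The change was -0.23 in HCC70, with both arrays lower, and 0.56 in MDA-MB-468, with both arrays higher. The contrast lost its call without set a array 1 (adjusted p = 0.0556) and in a fit of the compared arrays alone (adjusted p = 0.0641).

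Named pathway genes were also tested for this difference in the change under shEZH2. In this contrast 13.2% of all tested clusters were called, and 1 of the 8 genes above, HBEGF. Called by limma were 25% of 12 shedding, 4.17% of 24 adaptor, 21.1% of 19 inhibitor and 20% of 25 induced genes. The named genes are those with the largest called differences in each list. TIMP3 differed by 2.23 (adjusted p = 1.67e-05), with a change of 0.78 in HCC70 and -1.45 in MDA-MB-468. STAM differed by 0.80 (adjusted p = 0.00326), JUN by 0.76 (0.00326), ETV4 by -0.70 (0.00929) and DUSP5 by -0.50 (0.00888). These 5 kept their calls without any 1 of the 8 arrays. With set b as the HCC70 control the JUN value turned to -0.43 (adjusted p = 0.0352), DUSP5 was -1.08 and ETV4 -1.54. Under that control the calls of KLF10 (0.01, adjusted p = 0.943), PTPN2 (0.30, adjusted p = 0.324) and ARAF (0.34, adjusted p = 0.0811), given next, also ended. In a fit of the compared arrays alone 5 of these 9 calls ended, those of DUSP5, ADAM12, PTPN2, ARAF and KLF10. ADAM12 differed by 0.85 (adjusted p = 0.0157), but did not pass without set a array 2 or MDA-MB-468 scrambled array 2 (0.60 to 1.11). PTPN2 (0.64, adjusted p = 0.0471), ARAF (0.45, 0.0337) and KLF10 (0.42, 0.0235) ended without 6, 5 and 3 of the arrays, with values of 0.43 to 0.84, 0.34 to 0.55 and 0.38 to 0.46.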

How the results depend on the processing

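Of 72 changes of the tested genes, 26 were called. Over 1088 recomputed values, 991 kept their side of the threshold and the direction of any call, among them 33 uncalled values that changed sign. Another 48 lost and 29 gained a call, and 20 turned direction with a call on at least 1 side. Of the 26 calls 15 held without each array in turn. Among the treatment calls, that of ERBB2 in shEED cells was the only one to do so. No scaling moved the median of all clusters by more than 0.0615. Each gene had 1 cluster, so another cluster could not be tried. The cause of the changes below was not tested.

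The control group moved the HCC70 knockdown values most. For shEZH2, set b as control gave EREG -0.833, EPGN -0.175, DUSP6 -0.466 and PLAUR -0.134, with 4 of the genes and 4325 clusters called; both sets gave 3 and 3048; the empty vector, chosen after seeing the data, gave EREG -0.726, EPGN -0.595, DUSP6 -0.275 and PLAUR -0.235, with 4 and 3977. For shEED, set a gave EREG 0.853, TGFA 0.580 and PLAU 0.237, with 7 genes and 5940 clusters called; both sets gave EREG 0.324 and TGFA 0.156, with 4465 clusters; the empty vector, also chosen later, gave 1 gene. Both scrambled sets as control of the EZH2 cDNA, chosen later, gave 5 genes and 1536 clusters. Set a alone turned TGFA between the lines to 0.155. For the empty vector, set b alone gave EREG -0.107, TGFA -0.115, ERRFI1 -0.0667 and LIF -0.197, with 0 genes and 307 clusters called; set a alone gave 4022 clusters. For the contrast between lines, set b gave EREG -0.950 and JUN -0.428, with 4 genes called, and both sets gave 3. For shEZH2 against shEED, exchanged sets gave EGFR -0.440, EREG -1.69, TGFA -1.59, EPGN -2.17, RHBDF1 -0.396, PTPRK -0.370, PLAU -1.51 and LIF -4.33, with 7 genes and 6843 clusters called; both sets gave EREG -0.628, TGFA -0.746, EPGN -0.961, PLAU -0.204 and LIF -1.62, with 6 and 5169.

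Fits of the compared arrays alone called 276 clusters for HCC70 shEZH2, 4439 for shEED, 0 for the EZH2 cDNA (with 0 of the genes), 21 for MDA-MB-468 shEZH2 (0 genes), 6269 for set b against set a, and 500 for the contrast between lines (0 genes). With no floor 1 gene was called for shEED, 1 gene and 88 clusters for the EZH2 cDNA, and 848 clusters for MDA-MB-468 shEZH2. A repeated quantile normalization gave 1 gene for the EZH2 cDNA. Median centring gave 1 gene and 88 clusters for it, 1158 clusters for the empty vector and 677 for shEZH2 against shEED.

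Without single arrays the genes called ran from 0 to 1 for HCC70 shEZH2, 1 to 2 for shEED, 0 to 1 for the EZH2 cDNA, 0 to 1 for MDA-MB-468 shEZH2, 2 to 3 for the empty vector and 0 to 2 for the contrast between lines. The clusters called ran from 688 to 1977, 1013 to 1128, 14 to 97, 231 to 1552, 822 to 1077 and 921 to 2633 in the same order, from 1604 to 2040 for set b against set a and from 461 to 1522 for shEZH2 against shEED. The 8 calls between the lines and the 5 between the scrambled sets held in each such fit.

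Groups share replicate numbers, but the deviations of same-numbered arrays correlated above 0.1 in only 7 of 28 pairs of groups (-0.251 to 0.276), so the numbers were not taken to pair arrays. With the replicate block the genes called were unchanged in number, at 1 for HCC70 shEZH2, 4 for shEED, 2 for the EZH2 cDNA, 1 for MDA-MB-468 shEZH2, 8 between lines and 5 between scrambled sets, with 1965, 2483, 145, 1500, 11262 and 3836 clusters called.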

Other observations

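In the contrast of the HCC70 shEZH2 change with the shEED change, each against its own scrambled set, the genes induced after EGFR activation had 9 of 25 tested genes higher and 0 lower, against 6.31% of all tested clusters called. With the control sets exchanged 1 was higher and 21 lower, with 42.3% called. PLAU differed by 1.10 (adjusted p = 0.00114) and LIF by 1.09 (adjusted p = 0.00659). Both directions turned when the cells were set directly against each other, with -0.20 for PLAU (adjusted p = 0.166) and -1.62 for LIF (adjusted p = 9.46e-06). The inhibitor genes CBLC (0.66, adjusted p = 0.0194) and LRIG3 (-0.60, adjusted p = 0.0419) differed in opposite directions. The CBLC call ended without 5 of the 8 arrays (0.51 to 0.81) and the LRIG3 call without 6 of them (-0.72 to -0.49), and with the sets exchanged CBLC was 0.02 (adjusted p = 0.939).

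Against the mean of the scrambled sets, the empty vector cells had 5 of 12 shedding genes lower and 0 higher, with 10.9% of all tested clusters called. Against set b alone 2 of the 12 were lower, with 1.90% called. FURIN, a protease gene of precursor processing, was lower by -0.62 (adjusted p = 0.00235), and ADAM19 differed by -1.08 (adjusted p = 0.00133) with both means below the floor. JUN was higher by 0.76 (adjusted p = 0.000166). Against set b alone the calls of FURIN (-0.42, adjusted p = 0.0816) and JUN (0.17, adjusted p = 0.374) ended.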
